A study of Homo sapiens with 6 samples.

Results

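The genes described here are 8 markers that divide breast cancers into luminal and basal types, out of 28979 gene IDs counted in the series. The luminal side holds ESR1 and PGR, the estrogen and progesterone receptor genes, and GATA3 and FOXA1, transcription factor genes of luminal cells. The basal side holds KRT5 and KRT14, the keratin pair of basal epithelial cells, and TP63 and FOXC1, transcription factor genes of basal cells and basal-like tumours. They were taken by symbol. Of the 8 genes, 7 could be measured, and KRT5 was not analysed here. The selection rule counts such a gene as not detected, which is not the same as a measured count of 0.

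The cells were MDA-MB-231, an established human breast cancer cell line known as triple-negative, that is, negative for estrogen receptor, progesterone receptor and HER2, and of mesenchymal character. There were 3 libraries labelled Ang and 3 labelled Con, all of this line. The series design speaks of MDA-MB-231 exposed to exosomes of hypertrophic and of normal cardiomyocytes, in a search for the target genes of microRNAs. The labels do not spell out Ang or Con. Whether a replicate was its own culture is also unstated, so the p-values here rest on a spread between libraries that may be technical.

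As background, estrogen receptor alpha is a hormone-activated transcription factor that induces PGR, and it binds chromatin that FOXA1, a pioneer factor, opens together with GATA3. Luminal breast cells carry this circuit and the keratins 8, 18 and 19. Basal and myoepithelial cells carry p63, encoded by TP63, which maintains them, and keratins 5 and 14, which pair into filaments. FOXC1, a forkhead factor, is used as a marker of basal-like tumours. Mesenchymal breast cancer lines are known for low levels of most of these genes.

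Total counts per library ran from 3369212 to 5437190, so a count of 0 allows up to 3 counts, or 0.552 to 0.890 CPM (the count scaled to library size). The reads were PCR copies with no molecular identifiers, so such limits and the intervals of count ratios cover counting error only. Each of the 28979 IDs had at least 1 count in at least 1 library, so a gene that could be measured had been counted somewhere by construction. A feature of the whole series bears on every level below. Over 250 pairs of a non-coding gene lying under the exons of a protein-coding gene on the other strand, the non-coding gene had 32.5 times the counts per base of the coding gene at the median. By library this ratio was 35.0, 32.9 and 35.4 in Ang replicates 1 to 3, and 39.3, 23.2 and 41.1 in Con replicates 1 to 3, so Con replicate 2 stood apart with the lowest. Counts of coding genes are thus uncertain as measures of the RNA of the named gene. FOXC1, GATA3, ESR1, KRT14 and TP63 have no exon base under an exon of the other strand in GENCODE release 29, so no annotated gene reports on that strand at their exons.

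FOXC1 carried most of the counts of this marker set and GATA3 most of the rest. FOXC1 had 382 of the 510 counts of the 7 genes over the 6 libraries (74.9%), GATA3 had 100 (19.6%), and the other 5 genes shared 28 (5.49%). GATA3 and FOXC1 had at least 1 count in all 6 libraries, and these 2 of 7 genes compare with 76.6% of the 15863 protein-coding genes measured. Of the 42 values of the 7 genes, 19 were 0.

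**Figure D1:**
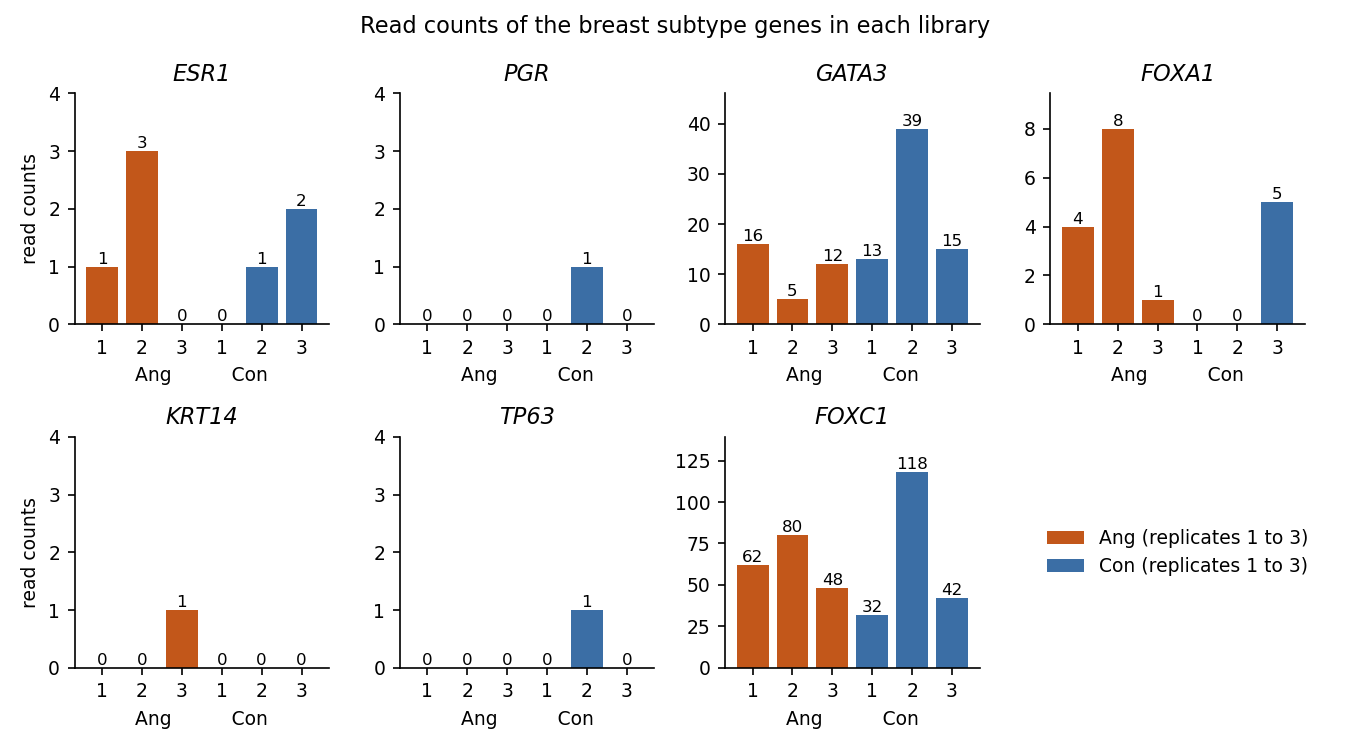
Read counts (y axis, linear, not scaled for depth; ranges differ between panels) of each of the 7 measured genes in Ang replicates 1 to 3 (left) and Con replicates 1 to 3 (right). FOXC1 and GATA3 have counts in every library, while PGR, TP63 and KRT14 have a single count in 1 library each.

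The hormone receptor genes had few counts, and what these say of their RNA is limited by the strand pattern above. ESR1 (ENSG00000091831, chromosome 6, 151656691 to 152129619 on GRCh38) had 1, 3 and 0 counts in Ang replicates 1 to 3, against 0, 1 and 2 counts in Con replicates 1 to 3. No library exceeded 3 counts and both groups held a library at 0. Over each group ESR1 had 4 counts in Ang and 3 in Con, a depth-scaled ratio of 1.70 with an exact (Clopper-Pearson) 95% interval of 0.288 to 11.6. PGR (ENSG00000082175, chromosome 11, 101029624 to 101130524) had 0 counts in all 3 Ang libraries, against 0, 1 and 0 counts in the Con libraries. With 1 count in 6 libraries a difference in PGR was not detectable at this depth. Levels of ESR1 and PGR were far under that of a typical gene when set per length of exon. ESR1 averaged 0.0222 CPM per kilobase over the 6 libraries, at the 4.51st percentile of protein-coding genes, and 0.0476 when its longest transcript was used in place of all its exons. PGR averaged 0.00183 CPM per kilobase, at the 0.0315th percentile, and the median over protein-coding genes was 1.82.

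The luminal transcription factor genes were detected at low levels, GATA3 more firmly than FOXA1. GATA3 (ENSG00000107485, chromosome 10, 8045378 to 8075203) had 16, 5 and 12 counts in the Ang libraries, or 4.69, 1.26 and 3.47 CPM. In the Con libraries GATA3 had 13, 39 and 15 counts, or 2.75, 6.59 and 4.72 CPM. The lowest value was in Ang replicate 2 and the highest in Con replicate 2, and the groups overlapped. GATA3 averaged 0.914 ± 0.506 CPM per kilobase in Ang and 1.36 ± 0.560 in Con (SD, n = 3 each). That placed it at the 40.5th percentile of protein-coding genes, and at the 47.3rd among the 9668 of them with no exon base under the other strand.

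FOXA1 (ENSG00000129514, chromosome 14, 37589984 to 37596059) had 4, 8 and 1 counts in the Ang libraries and 0, 0 and 5 counts in the Con libraries. It was thus counted in 3 of 3 Ang and 1 of 3 Con libraries, with the 1 count of Ang replicate 3 under the 3 counts that a 0 allows. The 13 counts over Ang and 5 over Con gave a ratio of 3.32, with a counting interval of 1.11 to 11.9. This interval leaves out the spread between libraries. In the fit without a low-count filter, which takes that spread in, the log2 fold change, Ang minus Con, was 1.26 ± 1.61 (SE), with an adjusted p of 0.893 in edgeR. FOXA1 averaged 0.291 ± 0.217 CPM per kilobase in Ang and 0.132 ± 0.228 in Con, at the 19.6th percentile. Only 0.402% of its exon bases lie under an exon of the other strand, of TTC6, which had 1 count in all.

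Of the basal genes other than FOXC1, almost nothing was counted. KRT14 (ENSG00000186847, chromosome 17, 41582279 to 41586921) had 1 count, in Ang replicate 3, and 0 counts in the Con libraries. TP63 (ENSG00000073282, chromosome 3, 189631416 to 189897279) had 0 counts in the Ang libraries and 1 count, in Con replicate 2. Both genes thus lay under the detection limit in each library and no fold is given. KRT14 is one of a family of near-identical keratin genes and pseudogenes whose reads can be split between copies. KRT16P6, a pseudogene of its relative keratin 16, had 1, 0 and 10 counts in the Ang libraries, against 0, 1 and 1 counts in the Con libraries. The 10 counts stood in Ang replicate 3, the library that also held the only count of KRT14. KRT17P3 and KRT42P had 1 count each over all libraries, and KRT6A, KRT6B, KRT16 and KRT17 were not analysed here.

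Of the measured basal markers, FOXC1 alone was counted in every library. FOXC1 (ENSG00000054598, chromosome 6, 1609972 to 1613897, a gene of 1 exon) had 62, 80 and 48 counts in the Ang libraries, or 18.2, 20.2 and 13.9 CPM. In the Con libraries it had 32, 118 and 42 counts, or 6.76, 19.9 and 13.2 CPM. Con replicate 1 was the lowest, Con replicate 2 lay among the Ang values, and the groups overlapped. FOXC1 averaged 4.43 ± 0.821 CPM per kilobase in Ang and 3.39 ± 1.68 in Con, at the 67.4th percentile of protein-coding genes and the 73.7th among those with no exon base under the other strand.

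By mean level per kilobase the order was FOXC1, GATA3, FOXA1, ESR1, KRT14, TP63 and PGR. FOXC1 lay above GATA3 in each of the 6 libraries, from 1.72 against 0.799 CPM per kilobase in Con replicate 1 to 5.14 against 0.367 in Ang replicate 2. Across libraries their ranges still met, since GATA3 reached 1.92 in Con replicate 2. GATA3 and FOXA1 did not separate beyond their spread, as FOXA1 was above GATA3 in Ang replicate 2 (0.507 against 0.367 CPM per kilobase). ESR1, KRT14, TP63 and PGR, with at most 3 counts in any library, could not be ordered among themselves.

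Described as identity per library, each library showed GATA3 on the luminal side and FOXC1 on the basal side, and none carried a full set of either. Of the 4 luminal genes, 3, 3 and 2 had at least 1 count in Ang replicates 1 to 3, against 1, 3 and 3 in Con replicates 1 to 3. Of the 3 measured basal genes, 1, 1 and 2 had a count in the Ang libraries, against 1, 2 and 1 in the Con libraries. With at least 3 counts required, the basal number was 1 in every library, which was FOXC1, and the luminal number was 2, 3 and 1 in Ang against 1, 1 and 2 in Con. FOXC1 held 65.6% to 83.3% of the counts of the set in each library. The summed level was 18.2, 20.2 and 14.2 CPM for the basal genes in Ang, against 6.76, 20.1 and 13.2 CPM in Con. For the luminal genes it was 6.16, 4.03 and 3.76 CPM in Ang, against 2.75, 6.93 and 6.92 CPM in Con. A library with few cells of one type cannot be told apart from one with little RNA of these genes per cell.

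The start regions of these genes differ in CpG content, a sequence property that the choice of genes did not use. The window of 250 bases before to 50 after the RefSeq start (GRCh38.p14) is printed for 3 genes that have 1 such window each, to set the most counted gene beside one seldom counted on each side. Capitals mark each CG dinucleotide.
FOXC1, chr6:1609665-1609964, plus strand: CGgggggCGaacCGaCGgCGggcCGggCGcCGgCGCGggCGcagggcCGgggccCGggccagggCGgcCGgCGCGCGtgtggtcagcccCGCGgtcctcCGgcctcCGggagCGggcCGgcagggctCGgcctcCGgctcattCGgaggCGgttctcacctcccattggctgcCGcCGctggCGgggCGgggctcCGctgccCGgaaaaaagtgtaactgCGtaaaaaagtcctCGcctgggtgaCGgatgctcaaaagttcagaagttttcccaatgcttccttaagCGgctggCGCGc
FOXA1, chr14:37595200-37595499, minus strand: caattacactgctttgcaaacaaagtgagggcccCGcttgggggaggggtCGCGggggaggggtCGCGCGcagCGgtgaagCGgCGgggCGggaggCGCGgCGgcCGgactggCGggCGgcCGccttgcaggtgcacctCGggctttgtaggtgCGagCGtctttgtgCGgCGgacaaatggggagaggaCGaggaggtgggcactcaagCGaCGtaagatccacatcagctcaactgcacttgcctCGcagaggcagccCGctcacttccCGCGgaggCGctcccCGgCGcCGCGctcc
TP63, chr3:189631139-189631438, plus strand: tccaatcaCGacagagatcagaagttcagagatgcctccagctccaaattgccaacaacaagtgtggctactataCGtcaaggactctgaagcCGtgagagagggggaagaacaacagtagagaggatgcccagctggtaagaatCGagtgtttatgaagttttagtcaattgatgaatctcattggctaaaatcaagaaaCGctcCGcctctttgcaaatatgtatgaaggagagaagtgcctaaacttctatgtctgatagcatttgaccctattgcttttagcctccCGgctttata

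The FOXC1 window held 40 CG dinucleotides at 72.7% GC and the FOXA1 window 34 at 69.3% GC, while the TP63 window held 7 at 43.7% GC. The median over the 35116 RefSeq windows was 14 CG dinucleotides. The observed over expected CpG ratio was 1.02 for FOXC1, 0.966 for FOXA1 and 0.491 for TP63, and 46.9% of all windows had a ratio of at least 0.6 with at least 50% GC. GATA3, with 6 alternative starts, had windows of 5 to 36 CG dinucleotides, ESR1, also with 6, had 4 to 17, PGR, with 3, had 7 to 17, and the 1 window of KRT5 had 7. KRT14 has no entry in the table used. Thus FOXA1, with 18 counts in all, had a start region nearly as rich in CpG as that of FOXC1, with 382.

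Of 3 core promoter motifs searched on both strands, the TATA box letters TATAAA matched the TP63 window and neither of the other printed windows, against 11.5% of all windows. The TP63 match was on the other strand, printed as tttata at the end of the window. It thus lay after the start and not ahead of it. The letters CCAAT were in the FOXC1 and TP63 windows (34.6% of all windows) and the GC box letters GGGCGG in the FOXC1 and FOXA1 windows (45.0%). The GGGCGG letters themselves hold a CG dinucleotide. A match describes the letters only, and DNA methylation and factor binding were not measured in these libraries.

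No subtype gene passed the threshold between Ang and Con. Among 14547 genes with enough counts to test, edgeR's quasi-likelihood test, adjusted after Benjamini and Hochberg, called 0 (0%) at an adjusted p under 0.05, and 494 (3.4%) had an unadjusted p under 0.05. DESeq2 counted 411 and limma-voom 437 at that unadjusted level and both called 0. GATA3 and FOXC1 were the 2 subtype genes in the fit, and neither had an unadjusted p under 0.05. All 3 Ang libraries lay on one side of all 3 Con libraries for 0 of these 2 genes, against 8.16% of the tested genes.

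FOXC1 had a log2 fold change, Ang minus Con, of 0.38 ± 0.32 (SE), with an adjusted p of 0.999 in edgeR. Its 95% confidence interval ran from 0.835-fold to 2.02-fold, so a doubling was not outside it. The value hung on single Con libraries. Without Con replicate 2 it was 0.84 ± 0.37, with means of 17.4 CPM in Ang against 9.98 CPM in Con, an unadjusted p of 0.0243 and an adjusted p of 0.349 in edgeR. Without Con replicate 1 it was 0.05 ± 0.34. GATA3 had a log2 fold change of -0.59 ± 0.64, with an adjusted p of 0.999 and an interval of 0.276-fold to 1.59-fold. Without Con replicate 2 it was -0.24 ± 0.80 (edgeR adjusted p 0.956), and without Ang replicate 2, the lowest library, -0.21 ± 0.69. Over all settings FOXC1 ran from 0.05 to 0.84 and GATA3 from -1.01 to -0.21, so the sign held in each while the size did not.

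**Figure D2:**
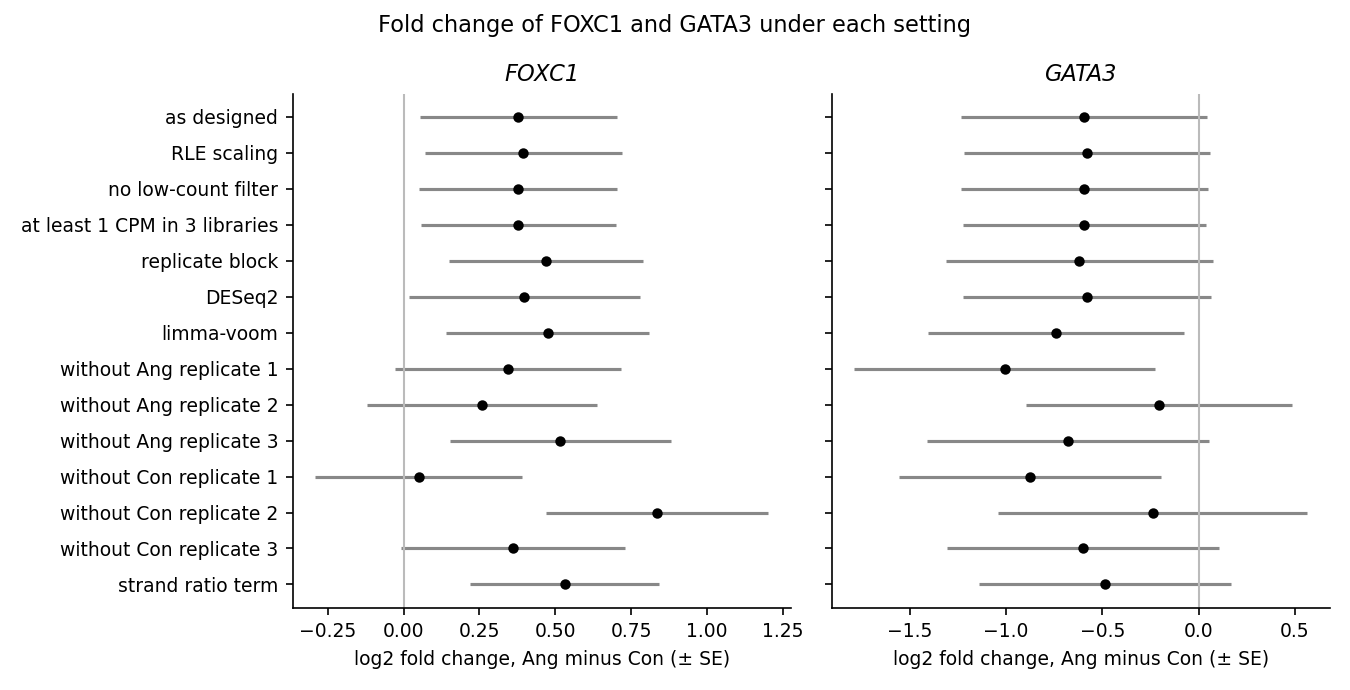
Log2 fold change, Ang minus Con, of FOXC1 (left) and GATA3 (right) on the x axis, with bars of ± SE, for the fit as designed and each alternative down the page. All FOXC1 points lie above 0 and all GATA3 points below 0, and the points farthest from the fit as designed are FOXC1 without Con replicate 2 and GATA3 without Ang replicate 1.

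The library with the lowest strand ratio held the most counts of both genes, and it was also the deepest, with 5437190 total counts. Con replicate 2, with a ratio of 23.2, had the highest GATA3 level of the 6 libraries (6.59 CPM) and a FOXC1 level (19.9 CPM) second to that of Ang replicate 2 (20.2 CPM). Con replicate 1, with a ratio of 39.3, had the lowest FOXC1 level (6.76 CPM). Yet Con replicate 3, with the highest ratio (41.1), had the second-highest GATA3 level (4.72 CPM). Its FOXC1 level (13.2 CPM) was near that of Ang replicate 3 (13.9 CPM). With the strand ratio as a term of the fit FOXC1 was at 0.53 ± 0.31 and GATA3 at -0.49 ± 0.66, with edgeR adjusted p of 0.813 and 0.952. The part of the strand ratio in these levels was not tested.

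**Figure D3:**
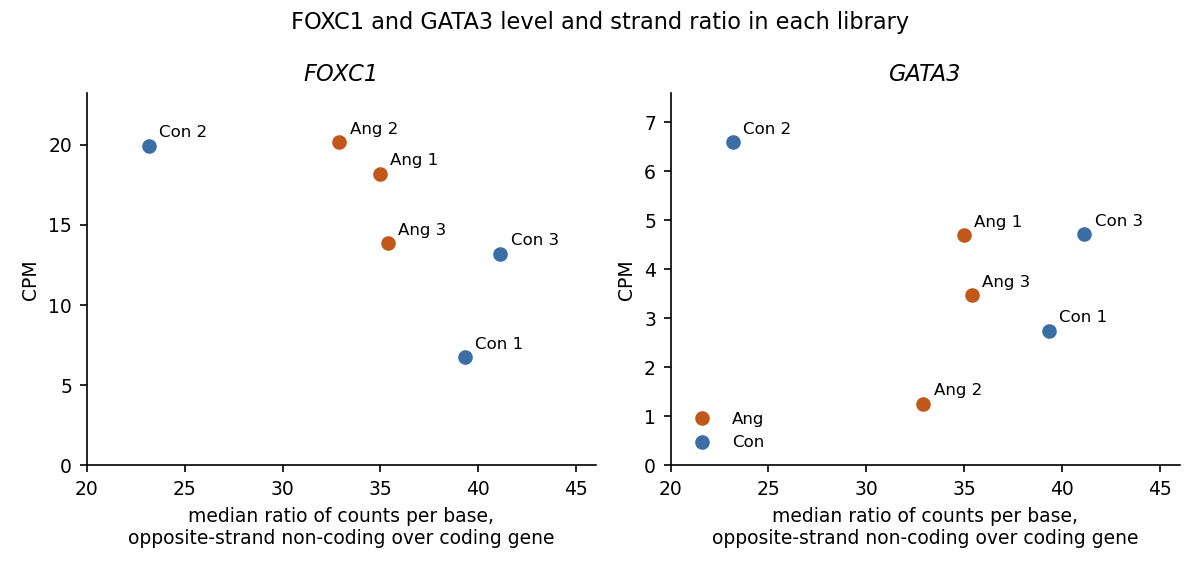
CPM (y axis, from 0) of FOXC1 (left) and GATA3 (right) against the library's median ratio of counts per base, opposite-strand non-coding over coding gene (x axis), for Ang and Con libraries, each point 1 library. Con replicate 2 lies alone at the left with high values of both genes.

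Each gene has a non-coding neighbour, described here after its values were seen. GATA3-AS1, which lies within the span of GATA3 on the other strand (8050450 to 8053484) without meeting its exons, had 8, 9 and 16 counts in Ang, against 15, 0 and 15 counts in Con, with the 0 in the library where GATA3 was highest. FOXCUT, a non-coding gene upstream of FOXC1 on the same strand (chromosome 6, 1605531 to 1606079), had 32, 26 and 26 counts in Ang, against 88, 41 and 24 counts in Con. Its highest value was in Con replicate 1, where FOXC1 was lowest.

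The genes whose pattern over the 6 libraries was most like that of FOXC1 were FMNL1, a formin-like gene (Pearson r = 0.994 on log2 CPM), and LINC03061, a long non-coding RNA gene (r = 0.993). FMNL1 had 114, 119 and 107 CPM in Ang, against 82.4, 116 and 101 CPM in Con. For GATA3 they were PDLIM4, a PDZ and LIM domain gene (r = 0.998), and NME1, a nucleoside diphosphate kinase gene (r = 0.964). These are the extremes of 10771 and 10772 genes compared over 6 points that share library depth and strand ratio, where 59 genes reached 0.95 with FOXC1 and 5 with GATA3, and are given as a description.

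Genes known to respond to estrogen were counted at many levels, and no call was made among them. Of 30 such genes 28 were measured and 16 tested, of which 0 passed, with 9 positive and 7 negative log2 fold changes and a median of 0.04, against a median of -0.01 over all tested genes. TFF1 and TFF3, the trefoil factor genes often used to read estrogen action, were not analysed here. The most abundant per kilobase was IGFBP4, an insulin-like growth factor binding protein gene, with 63.3 ± 8.21 CPM per kilobase in Ang and 51.3 ± 22.2 in Con. It had 121, 158 and 139 CPM in Ang, against 75.4, 168 and 95.3 CPM in Con, a log2 fold change of 0.30 ± 0.18 (edgeR adjusted p 0.999). Without Con replicate 2 IGFBP4 was the only gene of this list past the threshold, at 0.72 ± 0.15 with an adjusted p of 0.0125 in edgeR. That setting called 40 of 14867 tested genes. The value hung on single Con libraries, at 0.07 ± 0.20 without Con replicate 1 and 0.18 ± 0.21 without Con replicate 3, with no call in either. CCND1, the cyclin D1 gene, averaged 22.8 ± 1.73 CPM per kilobase in Ang and 21.9 ± 4.46 in Con, and its exons lie for 10.3% under those of the other strand. SLC39A6, a zinc transporter gene, averaged 15.1 ± 1.93 and XBP1, a secretory stress factor gene, 12.9 ± 2.55 in Ang, against 14.3 ± 2.50 and 12.1 ± 1.56 in Con. ABCC5, a transporter gene, had 13, 36 and 2 counts in Ang, against 35, 55 and 23 counts in Con. Its log2 fold change of -0.81 ± 0.50 hung on single Ang libraries, at -1.86 ± 0.66 without Ang replicate 2 and -0.30 ± 0.51 without Ang replicate 3, with no call in either. GREB1, a direct estrogen receptor target named after its values were seen, had 1, 0 and 0 counts in Ang, against 5, 2 and 5 counts in Con. These lie near the 3 counts that a 0 allows, and a difference in GREB1 was not tested. Other seldom counted genes of the list went either way. SCUBE2 had 0, 0 and 1 counts in Ang, against 4, 1 and 11 in Con. MYB had 4, 6 and 3 against 4, 1 and 0, and PKIB had 3, 0 and 5 against 0, 0 and 2.

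Receptor partners and other steroid receptor genes were mostly counted. All 29 were measured and 25 had counts in every library. Of 24 tested, 0 passed, 15 values were positive and the median was 0.05. CARM1, a coactivator methyltransferase gene, had 69.1 ± 7.70 CPM per kilobase in Ang and 68.2 ± 12.5 in Con, with 19.9% of its exon bases under the other strand. PGRMC1 and PGRMC2, genes of membrane progesterone-binding proteins, averaged 26.5 ± 4.6 and 19.2 ± 1.86 in Ang, against 22.2 ± 3.34 and 18.3 ± 3.25 in Con. PHB2, which encodes a repressor of estrogen receptor activity, averaged 21.3 ± 1.53 in Ang and 16.5 ± 5.47 in Con. TLE3, a corepressor gene, had the smallest unadjusted p of the list (0.00561), at 42.8, 34.0 and 35.0 CPM in Ang, against 18.4, 29.4 and 20.4 CPM in Con. The groups did not overlap, and its log2 fold change of 0.70 ± 0.25 missed the threshold with an edgeR adjusted p of 0.999.

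Further estrogen receptor genes, named after their values were seen, were low too. ESR2, the second estrogen receptor gene, had 8, 2 and 3 counts in Ang, against 18, 9 and 1 counts in Con. GPER1, a membrane estrogen receptor gene, had 13, 11 and 16 counts in Ang, against 2, 14 and 11 counts in Con. NR3C1, the glucocorticoid receptor gene, stood apart from these with 172, 215 and 178 counts in Ang, against 294, 392 and 143 counts in Con.

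The other luminal genes ranged from among the most abundant genes to single counts, with a list median of 0.757 CPM per kilobase, under the 1.82 of protein-coding genes. Keratins led them. KRT8 averaged 143 ± 1.61 CPM per kilobase in Ang and 139 ± 18.8 in Con, at the 99.4th percentile, and KRT18, its filament partner, 57.4 ± 9.69 and 49.7 ± 10.1. These neighbours share 525 exon bases on opposite strands, and their counts are uncertain, as are those of all coding genes here. KRT19 averaged 49.9 ± 10.4 in Ang and 42.8 ± 12.3 in Con, and KRT7 32.1 ± 2.87 and 28.5 ± 6.29. KRT7 has 7.67% of its exon bases under the other strand. KRT19 has none, so no annotated gene reports on that strand at its exons. Over the 30 luminal genes 25 were measured, 17 of those in every library, and of 15 tested 0 passed, with 10 positive values and a median of 0.09. MUC1, a mucin gene, had 4.69, 1.26 and 0.867 CPM in Ang, against 6.97, 3.55 and 4.09 CPM in Con (-1.10 ± 0.69 on the log2 scale), and ERBB3, a receptor kinase gene, had a log2 fold change of 0.69 ± 0.53. The value for MUC1 hung on single libraries, at -2.16 ± 0.91 without Ang replicate 1 and -0.73 ± 0.72 without Ang replicate 3, with no call in either. At the low end, named after its values were seen, CDH1, the E-cadherin gene, had 0, 4 and 6 counts in Ang, against 1, 12 and 1 counts in Con, and CLDN3, a claudin gene, likewise named, had 9 counts in all. The other claudin genes of the list were higher, CLDN4 with 981 counts in all (82.4th percentile) and CLDN7 with 465 (79.7th). EPCAM, also of this list, had 243 counts in all (67.3rd percentile). Among the luminal regulators in the list, XBP1 lay at the 88.0th percentile of protein-coding genes and TFAP2A, an AP-2 factor gene, at the 53.5th. ELF3 and TFAP2C lay lower, at the 39.4th and the 29.9th. SPDEF, ELF5, TFAP2B, AGR2 and AGR3 were not analysed here.

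The other basal genes were spread as widely, with a list median of 6.29 CPM per kilobase. Of the 4 most abundant, YBX1, a Y-box factor gene, averaged 338 ± 0.755 CPM per kilobase in Ang and 321 ± 47.2 in Con, MSN, the moesin gene, 63.5 ± 4.16 and 60.7 ± 8.42, LAMB3, a laminin chain gene, 57.3 ± 1.4 and 49.6 ± 11.5, and CAV1, the caveolin gene, 47.5 ± 2.80 and 41.0 ± 7.69. Of the 34 other basal genes 27 were measured, 22 of those in every library, and of 19 tested 0 passed, with 12 positive values and a median of 0.05. SOX10, a neural crest factor gene, had 6.16, 6.05 and 2.60 CPM in Ang, against 1.27, 1.01 and 3.46 CPM in Con. Its log2 fold change of 1.44 ± 0.72 had an unadjusted p of 0.0471 and an edgeR adjusted p of 0.999, and the groups overlapped at Ang replicate 3 and Con replicate 3. SFN, the 14-3-3 sigma gene, had a log2 fold change of -0.29 ± 0.22, and of -0.04 without Con replicate 2. At the low end, named after their values were seen, KRT15 had 50 counts in all, EN1 had 20 and CRYAB had 10.

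**Figure D4:**
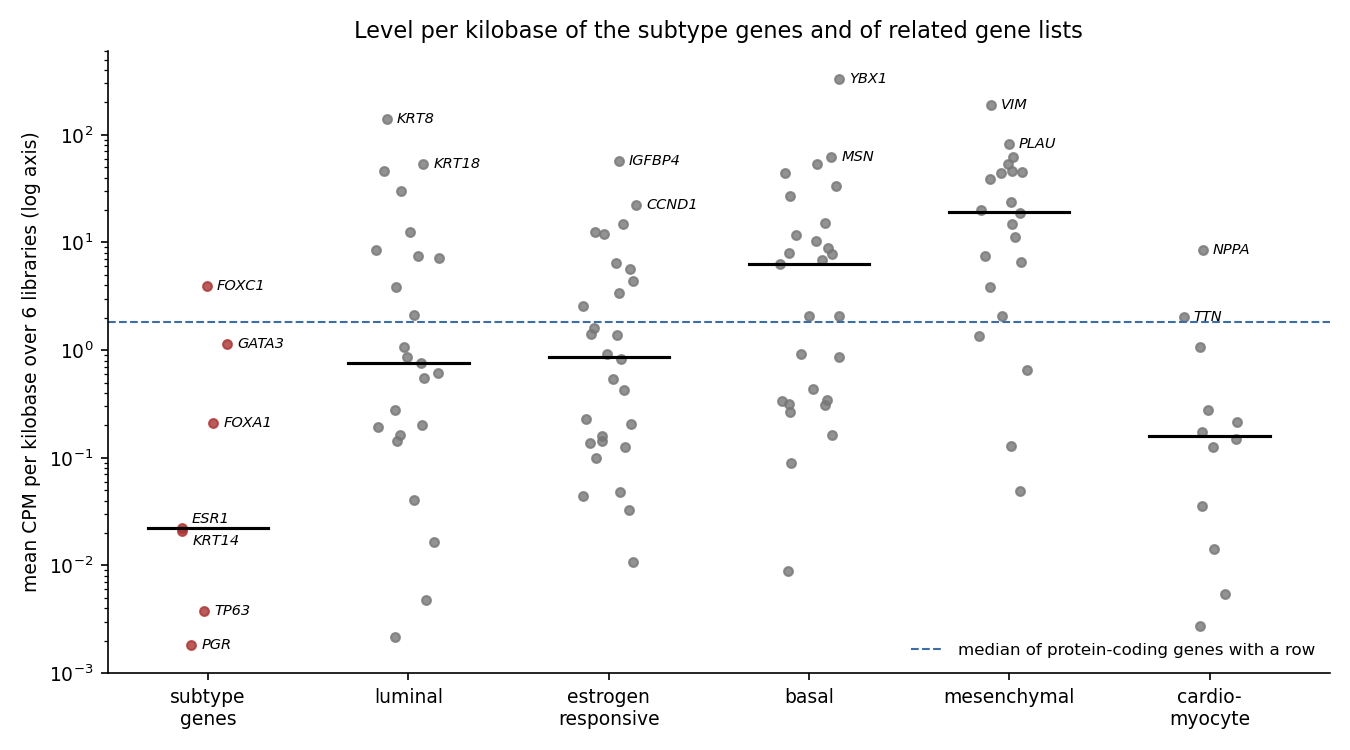
Mean CPM per kilobase of exon over the 6 libraries (y axis, log) for each measured subtype gene and the measured genes of 5 related lists (x axis; genes not reported here are not drawn), with the list median as a bar and the median of protein-coding genes as a dashed line. FOXC1 alone of the 7 subtype genes lies above the dashed line at 1.82, while KRT8, YBX1 and VIM exceed 100.

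The contractile genes of myoepithelial cells, the genes of HER2-type tumours and the PAM50 subtype classifier genes, of which 6 are among the 8 markers, showed no call. Of 14 myoepithelial genes 8 were tested, 4 positive and 4 negative, with CALD1 at 26.5 ± 1.49 CPM per kilobase in Ang and 27.7 ± 2.12 in Con and VCL at 19.7 ± 0.317 and 19.2 ± 2.25. Of 10 HER2-type genes 5 were tested, 1 positive, and ERBB2, the HER2 gene, averaged 103 ± 16.1 CPM in Ang and 107 ± 18 CPM in Con, while STARD3 had a log2 fold change of 0.50 ± 0.31. Of 50 PAM50 genes 36 were tested, 22 positive, with a median of 0.05. The proliferation genes MKI67, at 32.9 ± 1.20 CPM per kilobase in Ang and 34.2 ± 2.39 in Con, and ANLN, at 42.9 ± 2.30 and 41.4 ± 4.38, were among its most abundant, and CXXC5, a zinc finger gene, had a log2 fold change of 0.87 ± 0.54.

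Genes by which MDA-MB-231 is known were mostly counted. Of 22 mesenchymal genes 21 had counts in every library, among them VIM, the vimentin gene, at 200 ± 9.61 CPM per kilobase in Ang and 180 ± 29.4 in Con, and PLAU, the urokinase gene, at 87.5 ± 2.94 and 76.6 ± 17.9. PLAU has 31.1% of its exon bases under the other strand and VIM has 24.4%. Not all of the list was abundant. Lowest in level, and named after their values were seen, were SPARC with 6 counts in all (8.43rd percentile of protein-coding genes), CDH11 with 45 (15.3rd) and TWIST1 with 31 (32.3rd). Of 19 tested, 0 passed, 17 values were positive and the median was 0.18, where 49.2% of all tested genes were positive. The genes share the same 6 libraries, so their signs are not independent. The list summed to 4657, 4935 and 4697 CPM in Ang, against 3960, 5185 and 3715 CPM in Con. Con replicate 2 thus lay above every Ang library (exact two-sided permutation test, p 0.4, or 0.8 adjusted over the lists). S100A4, at 51.3, 42.1 and 47.4 CPM in Ang against 35.7, 38.5 and 23.6 CPM in Con, and EPAS1, with a log2 fold change of 0.47 ± 0.25, had the smallest unadjusted p (0.0252 and 0.0640). Of 20 cardiomyocyte markers 12 were measured and 2, NPPA and TTN, tested, both with negative values. NPPA, the atrial natriuretic peptide gene, had 22, 24 and 43 counts in Ang, against 31, 49 and 55 counts in Con, and averaged 8.49 CPM per kilobase over the 6 libraries, at the 82.5th percentile, against 2.05 for TTN, the titin gene. MYH6, the alpha myosin heavy chain gene, had 1 count in all. The summed level of the 12 was 215 to 259 CPM in Ang and 207 to 311 CPM in Con, nearly all from TTN, a very long gene (206 to 244 CPM in Ang and 193 to 291 CPM in Con). TTN and NPPA have 15.5% and 25.5% of their exon bases under the other strand. Of 12 leukocyte markers 6 were measured, with a summed level of 10.6 to 12.0 CPM in Ang and 9.29 to 13.8 CPM in Con. Their part in the results was not tested.

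Summed levels of the lists did not separate the groups beyond the reach of the design. The exact two-sided permutation test over 6 libraries cannot go below 0.1, and 10 lists were tested. The luminal list summed to 1635 ± 66.1 CPM in Ang and 1536 ± 65.0 CPM in Con (exact p 0.2), and the basal list to 2256 ± 56.6 and 2143 ± 277 CPM (exact p 0.5). The Con libraries of the basal list were at 2010.1, 2460.5 and 1957 CPM, so Con replicate 2 alone lay above the lowest Ang library, and without it the Con mean was 1984 CPM and the difference 272 CPM in place of 113 CPM. The receptor partner list, at 1382, 1409 and 1388 CPM in Ang against 1259, 1379 and 1331 CPM in Con, did not overlap between groups and reached the smallest exact p of 0.1, or 0.8 adjusted over the 10 lists.

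The pattern of counts on opposite strands was visible at the luminal and basal genes themselves. KRT7-AS, a non-coding gene whose exons overlap those of KRT7 on the other strand, had 15407 counts per kilobase over the 6 libraries, against 757 for KRT7. ELF3-AS1 had 1508 counts per kilobase, against 25.9 for ELF3, an epithelial transcription factor gene. VIM-AS1 had 70916 counts per kilobase, against 4731 for VIM. In the other direction, ZEB1-AS1 had 25.3, against 165 for ZEB1, a mesenchymal transcription factor gene. Of 35 pairs of a listed gene and a non-coding gene or pseudogene on the other strand, the non-coding one was higher in 28.

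**Figure D5:**
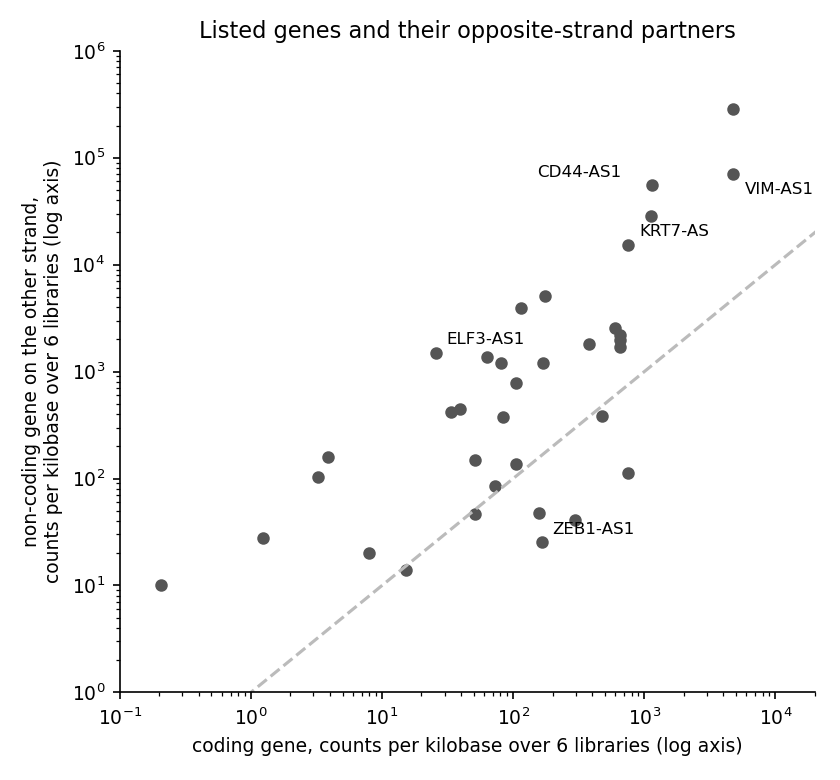
Counts per kilobase of exon over the 6 libraries (both axes log) of genes in the luminal, basal, estrogen-responsive, receptor partner and mesenchymal lists (x axis) and of the non-coding genes and pseudogenes that overlap them on the other strand (y axis), with a dashed line of equal values. Of the 35 points 28 lie above the line, and the named points are the genes given in the text and the one at CD44, the hyaluronan receptor gene.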

How the data were processed

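RNA of MDA-MB-231 cells was sequenced in 6 libraries, grouped by their titles into 3 Ang and 3 Con. The authors deposited raw read counts per Ensembl gene ID, 1 table per library. Per the submitters' processing notes, HTSeq 0.9.1 and DESeq 1.39.0 were used with GRCh38. The sources used here name no aligner, annotation release or strand setting. Per the labels' protocols, poly-A RNA was primed with random oligonucleotides and amplified in 15 PCR cycles, with no strand-marking step named.

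The fit used edgeR 4.0.16 under R 4.3.3, with filterByExpr, TMM scaling and the robust quasi-likelihood test of Ang against Con, with Benjamini-Hochberg adjustment over all 14547 tested genes at 0.05. DESeq2 1.42.0 and limma 3.58.1 (voom) were alternatives. CPM are TMM scaled, per-kilobase values use the union of GENCODE 29 exons, and SD is over 3 libraries. Lists were given no enrichment or set test; the summed CPM of 10 lists was compared by an exact permutation test. Strand pairs needed 90% of the exon bases of the non-coding gene under the coding gene and 300 counts of the coding gene, with 0.5 added. Promoter windows are RefSeq's.

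Named genes were the 8 markers, their keratin copies and opposite-strand genes, the 4 most abundant per kilobase and the 2 of smallest p per list, and the 2 genes most alike in pattern (mean of at least 5 CPM, log2 of CPM plus 0.5). They are given in full or by count, and some are not reported here. The markers and lists were chosen with earlier results of these data known.

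The fit was tested on simulated data, where it recovered 50.3% of 2-fold and 91.5% of 4-fold changes. A 2-fold change could thus be missed by it. The changes were placed at random over all tested genes, whose median SE was 0.30, against 0.64 for GATA3 and 0.32 for FOXC1. The rates are thus not those of seldom counted genes. Each gene was drawn on its own, so a shift shared by many genes in 1 library was not simulated. No libraries were identical. Same-numbered Ang and Con libraries had correlations of deviations of 0.036 to 0.068, against -0.070 to 0.030 for the other combinations. All were small, but the same-numbered ones were the highest, so they do not settle whether numbers mark pairs. The labels name no pairs, so the fit took none, and the replicate number as a block was an alternative.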

Additional observations from a re-analysis of the deposited data

How the results depend on the processing

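Genes past the threshold numbered 0 as designed and 0 with RLE scaling, without a low-count filter, with at least 1 CPM in 3 libraries, with DESeq2 and with limma-voom. Leaving out 1 library gave 0 to 40, the 40 when Con replicate 2 was dropped and 1 when Con replicate 1 was, and the strand ratio term, chosen after seeing the data, gave 4. Among the listed genes 0 passed as designed, and 0 to 2 when 1 library was left out. Both, IGFBP4 and LOXL2 (0.60 ± 0.14, edgeR adjusted p 0.0452), passed when Con replicate 2 was dropped. The cause of these moves was not tested. With the replicate number as a block, 0 genes passed, FOXC1 was at 0.47 and GATA3 at -0.62. Same-numbered libraries correlated little, though more than the others, and the labels name no pairs, so the block was an alternative only.

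Values with at least 1 count numbered 23 of 42 for the subtype genes, 16 at a minimum of 3 counts, 11 at 10 counts and 15 at 1 CPM, the stricter minimum itself lowering the number. Of 598 alternative log2 fold changes of other named genes, 1 passed the threshold, 34 took the other sign with no call, and the remaining 563 did neither, which says nothing of their size: ABCC5 ran from -1.86 to -0.30. All 77 alternative differences of summed levels moved by less than 1 SD, though that of the basal list ran from 20.5 to 272 CPM. Depth limits PGR, TP63 and KRT14 to statements on detection.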
